A study of Mus musculus with 14 samples.

Results

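Closely spaced AHCY peaks are peaks of the replicate 1 AHCY ChIP-seq list that have another replicate 1 peak within 20 kb, measured from edge to edge, on chromosomes 1-5, 7, 9, 10 and 12-19 of the mouse build mm9. There were 736 such peaks among the 3600 replicate 1 peaks on these 16 chromosomes (20.4%, exact 95% interval 19.1 to 21.8%), and the whole replicate 1 list held 4465. The other 2864 peaks on these chromosomes lay farther from their neighbours and served for comparison. Members were chosen by the measured positions of the replicate 1 peaks, so their spacing is described and not tested. A gap within the limit makes both its peaks members, so intervals of such shares, which treat peaks as independent, are likely too narrow. The gap rule reads no replicate 2 position, but chromosomes 6, 8 and 11 are left out, and 4762 of the 11733 replicate 2 peaks lie on the chromosomes kept.

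The series holds 14 libraries, and the peak lists of its 2 AHCY ChIP-seq libraries were used. Both came from wild-type E14 cells, a male mouse embryonic stem cell line of strain 129/Ola, grown on gelatin in serum-free N2B27 medium with LIF, the MEK inhibitor PD0325901 and the GSK3 inhibitor CHIR99021. AHCY-bound chromatin was captured with a rabbit antibody. The control IgG library and the 11 RNA-seq libraries are not analysed here, so no value below compares AHCY with a control antibody. Nothing in the labels says whether the replicates were separate cultures, and both share 1 cell line.

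AHCY, S-adenosylhomocysteine hydrolase, splits S-adenosylhomocysteine into adenosine and homocysteine. S-adenosylhomocysteine is left behind whenever a methyltransferase uses S-adenosylmethionine, and it inhibits these enzymes, so its removal keeps the methylation of DNA, RNA and histones going. ChIP-seq maps where a protein is held on chromatin, and a peak is a stretch where the caller found more reads than its background. Neighbouring peaks can be separate sites or pieces of 1 broader stretch that the caller divided. Gene names and base sequences are not given for these regions, because no annotation or genome of mm9 was used here.

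Linking each peak to the next within 20 kb gave 332 groups. Most were pairs: 282 groups held 2 peaks, 37 held 3, 6 held 4, 5 held 5 and 2 held 6. From the first base of the first peak to the last base of the last, a group spanned a median of 13.4 kb (quartiles 7.96 and 19.3 kb), and the widest spanned 60.2 kb. The 736 peaks themselves covered 1451 kb of the 4.77 Mb inside their groups. Their gap to the nearest peak ran from 9 bp to 19.9 kb, with a median of 7.19 kb, against a median of 112 kb for the farther peaks.

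The 5 groups with the most peaks show how differently the replicates filled such stretches. Peaks carry the score that the authors' peak caller gave them, which starts at 50 in both lists. What it measures is not stated, and it is used here only to order peaks within a list. It is not read as enrichment or binding strength: stronger and weaker here mean a higher and a lower score. Scores of the 2 lists are not on a shared scale.

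The group at 17938516 to 17979751 of chromosome 2 held 6 replicate 1 peaks, with scores of 57.9, 104, 96.3, 53.4, 64.2 and 105 along the chromosome. Only the second and the third, 293 bp apart, were met by replicate 2 peaks, which scored 61.2 and 60.9. The strongest of the 6, at the far end, had none, and a further replicate 2 peak of score 96.9 lay between the last 2. The replicates therefore shared the tight pair nearer the start of this stretch. Before it only the first replicate 1 peak, of score 57.9, was unmatched, and after it both lists had unmatched peaks.

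The group of 6 on chromosome 7 at 134337589 to 134389635 spanned 52.0 kb. Its scores were 94.9, 91.2, 58.7, 91.3, 77.7 and 63.3. Replicate 2 had a peak over the first (score 76.7) and 1 other in the stretch (64.9), which touched no replicate 1 peak. Here 5 of the 6 replicate 1 peaks had no counterpart, among them those scoring 91.2 and 91.3 (ranks 795 and 791 of 3600).

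On chromosome 2 at 74492847 to 74550714 all 5 replicate 1 peaks were found again. They scored 90.5, 95.9, 56.2, 116 and 115, were 943 to 1905 bp wide and stood 11405 to 14774 bp apart. The replicate 2 peaks over them scored 99.5, 116, 233, 212 and 62.9. Replicate 2 listed 4 more peaks inside this stretch, and the strongest of its 9 peaks there, at a score of 314, fell between the last 2 replicate 1 peaks. This was 1 of 13 groups of 4 or more peaks, and no other of them had every peak met by replicate 2.

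The opposite case was chromosome 12 at 88207823 to 88247785. Its 5 replicate 1 peaks scored 71.5, 130, 86.9, 70.7 and 56.9, and replicate 2 had 0 peaks in the whole 40.0 kb. In the last of these groups, on chromosome 7 at 13590796 to 13630404, replicate 1 peaks scored 51.4, 68.5, 97.3, 59.6 and 74.8, and the third and the fifth were met by replicate 2. Replicate 2 had 6 peaks in that stretch, the strongest of them (score 166) in a gap of replicate 1.

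**Figure D1:**
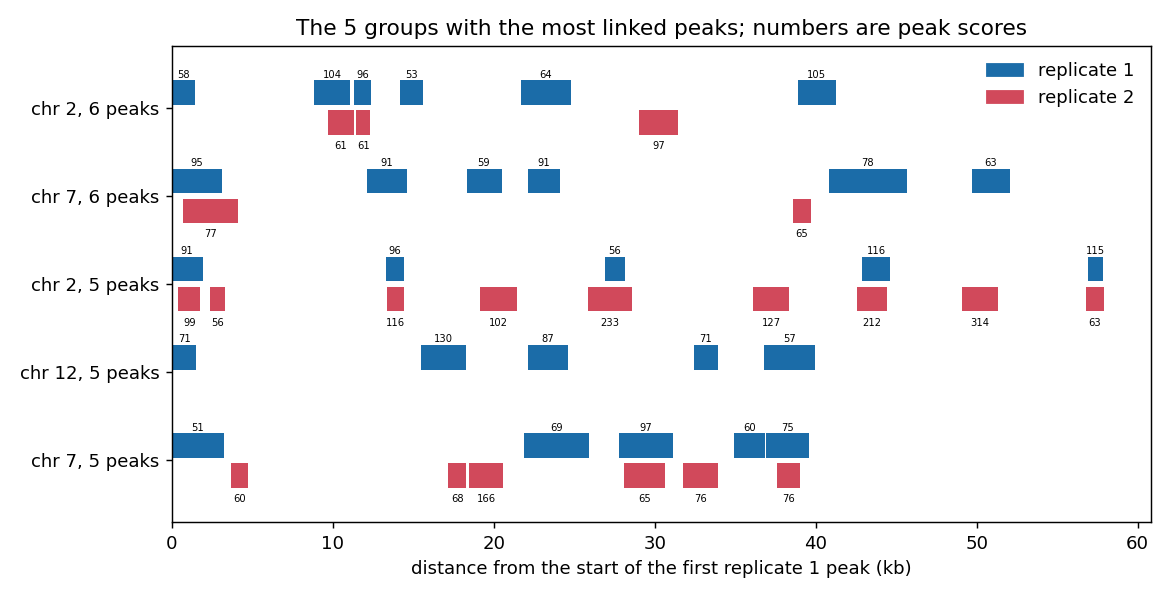
Replicate 1 (blue) and replicate 2 (red) peaks in the 5 groups with the most linked replicate 1 peaks, drawn to scale as distance in kb from the start of the first replicate 1 peak; the numbers are the authors' peak scores. All 5 replicate 1 peaks of the third group lie over a replicate 2 peak, and the chromosome 12 group has 0 replicate 2 peaks.

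Members were wider at the median than farther peaks but had similar scores. The median score was 67.9 (quartiles 56.9 and 86.9) for members and 67.1 (56.9 and 87.9) for farther peaks, a difference of 0.79. The best-scoring of 4 equal groups of all 3600 peaks, from 87.7 up, held 24.3% of the members and 25.1% of the farther peaks. Scores of members and farther peaks thus spread over the same range, apart from the top: the best member scored 273 and the best farther peak 347.

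The median width was 1749.5 bp for members (quartiles 1303 and 2386 bp) and 1524.5 bp for farther peaks (1161 and 2035 bp), a difference of 225 bp. Members were wider at the median on 13 of the 16 chromosomes and narrower on 3. The widest of 4 equal groups, from 2108 bp up, held 35.3% of the members and 22.3% of the farther peaks. Median width was lowest, at 1330.5 bp, for peaks over 500 kb from any other, and highest, at 2135 bp, for the 40 peaks 1 to 2 kb apart. The 20 kb limit marked no clear step in width. The median was 1672.5 bp from 10 to 20 kb, 1633.5 bp from 20 to 50 kb and 1631 bp from 50 to 100 kb. It was lower among more distant peaks, at 1400 bp from 200 to 500 kb. Width did not rise steadily as gaps shrank. The 111 peaks up to 1 kb apart had a median of 1487 bp, below that of farther peaks. A wider peak leaves a smaller gap to its neighbour, so width and the edge-to-edge rule are not independent. With gaps taken between midpoints the difference was 191.5 bp. Score, width and position come from the same library and peak calling, so these differences are descriptions and carry no test.

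The 5 best-scoring members were all met by replicate 2. The strongest covered 34087169 to 34093651 of chromosome 17 and scored 273 in replicate 1 (rank 5 of the 3600 peaks) and 179 in replicate 2. At 6483 bp it was also the widest member. A peak of chromosome 9, 57349039 to 57353111, followed with 247 and 124, and then one of chromosome 17, 34254943 to 34258167, with 223 and 305. The fourth, on chromosome 5, ran from 143573983 to 143579390 (207 and 151). The fifth, on chromosome 15, ran from 80084965 to 80089483 (202 and 248). All 5 were wider than the upper quartile of members, at 3225 to 6483 bp, and their nearest neighbours stood anywhere from 41 bp to 18.8 kb away.

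**Figure D2:**
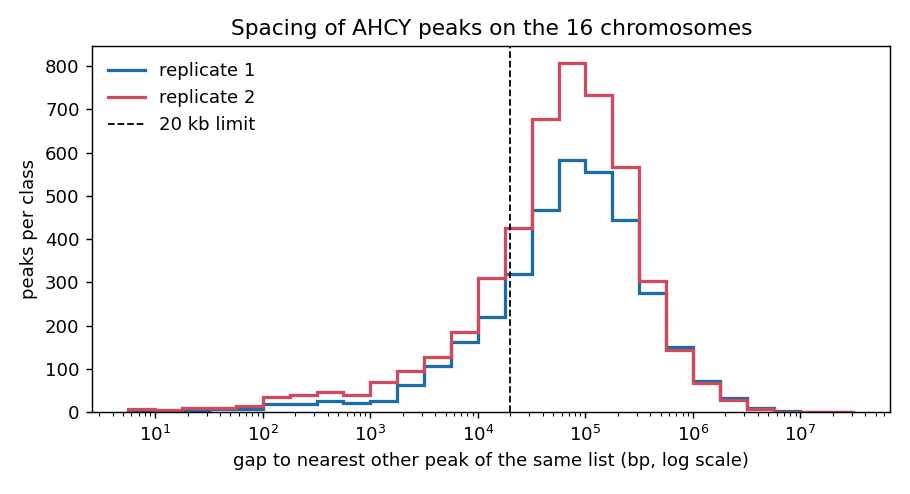
Number of peaks on the 16 chromosomes by the gap to the nearest other peak of the same list (bp, log scale, 4 classes per factor of 10), for replicate 1 (blue) and replicate 2 (red). Most peaks of both lists lie right of the dashed 20 kb limit, and a low shoulder of peaks under 1 kb apart is present in both.

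Gaps within members were not evenly spread. Among the 404 pairs of neighbours within 20 kb, 41 had a gap of 500 bp or less and 15 a gap of 500 to 1000 bp, whereas gaps from 2 to 20 kb held on average 9.06 pairs per 500 bp. The smallest gap, 9 bp, was on chromosome 9 between 62991942 to 62995936 (score 94.2) and 62995946 to 62997839 (58.2), and each peak had a replicate 2 peak (349 and 137). On chromosome 4, peaks at 135100632 to 135104391 and 135104408 to 135108307 (123 and 82.2) stood 16 bp apart. Also on chromosome 4, those at 59561164 to 59562313 and 59562331 to 59563134 (91.0 and 59.1) stood 17 bp apart, and only the first was met by replicate 2.

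In 14 pairs a single replicate 2 peak overlapped both replicate 1 peaks by 1 bp or more. It covered both of them whole in 0 of the 14. All 14 had gaps between 16 and 697 bp, and 12 of them were among the 41 pairs up to 500 bp. The pair on chromosome 4 with the 16 bp gap was one: its replicate 2 peak, with a score of 62.7, lay across the gap from 135104380 to 135106464. Another joined the strong chromosome 17 peak at 34254943 to its neighbour at 34258209 to 34260062 (score 84.0), 41 bp on, with a replicate 2 peak of 3724 bp. The replicate 2 peaks in these 14 cases had a median width of 2050 bp. The pairs themselves, from the start of the first peak to the end of the second, spanned a median of 3509 bp. The reverse was also seen: of 619 replicate 2 pairs within 20 kb on the 16 chromosomes, 21 were joined by 1 replicate 1 peak. The lists thus placed the ends of peaks differently in these stretches.

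Closely spaced peaks were not met by replicate 2 more often than farther peaks: their share was lower, by a difference whose interval includes 0. Of the 736 members, 322 overlapped a replicate 2 peak by 1 bp or more (43.8%, exact 95% interval 40.1 to 47.4%), beside 1679 of all 3600 peaks (46.6%). Of the farther peaks 1357 of 2864 did so (47.4%, 45.5 to 49.2%). The difference, members minus farther peaks, was -3.63 percentage points. Its 95% interval ran from -7.62 to 0.41 percentage points (Newcombe's method), which includes 0. These intervals cover counting error only and treat peaks as independent. Peaks of 1 group are neighbours and may not be independent, and 2 libraries allow no test of the difference. The share was lower for members on 10 of the 16 chromosomes and higher on 6.

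Within the members the share varied with the gap. It was highest for peaks with a neighbour at 1 kb or less, with 66 of 111 overlapping (59.5%, 49.7 to 68.7%). This class includes the 14 joined pairs, in each of which a single replicate 2 peak makes both peaks count as overlapping. From 1 to 2 kb the share was 42.5% (17 of 40) and from 2 to 5 kb 37.4% (49 of 131). It was 38.3% from 5 to 10 kb (72 of 188) and 44.4% from 10 to 20 kb (118 of 266). Just beyond the limit, from 20 to 50 kb, it was 44.3% (281 of 634), and it reached 49.7% (160 of 322) beyond 500 kb. The 20 kb limit itself marked no step, since the classes on both sides of it had nearly the same share. With the 111 peaks up to 1 kb left out, 256 of 625 members overlapped (41.0%, 37.1 to 44.9%), a difference from farther peaks of -6.42 percentage points. The classes were chosen with results in view, and the differences between them were not tested.

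**Figure D3:**
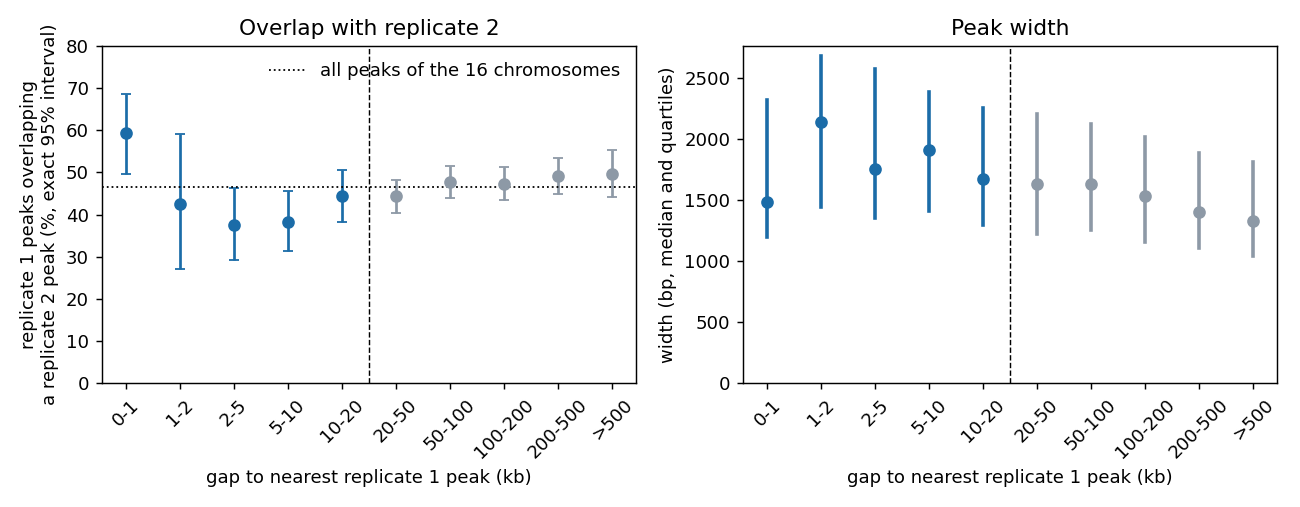
Share of replicate 1 peaks overlapping a replicate 2 peak (left, with exact 95% intervals) and peak width in bp (right, median and quartiles) by the gap to the nearest replicate 1 peak in kb; blue classes are members, grey classes farther peaks, and the dotted line is the share over all 3600 peaks. The share is 59.5% in the class up to 1 kb and between 37.4 and 49.7% in all others.

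The 3 pairs on each side of the limit were picked by their gaps, so their similar spacing is set by that choice. They are given as a description. Just inside, on chromosome 19, peaks at 40947352 to 40948303 and 40968202 to 40970109 stood 19898 bp apart with scores of 74.6 and 184. Just outside, on chromosome 5, peaks at 130362531 to 130363891 and 130384064 to 130386437 stood 20172 bp apart with scores of 67 and 74.9. The next inside had gaps of 19894 bp (chromosome 4, scores 92.8 and 54) and 19881 bp (chromosome 3, 62.0 and 113). The next outside had gaps of 20199 bp (chromosome 9, 55.7 and 53.7) and 20236 bp (chromosome 15, 80.5 and 76.8). Replicate 2 met both peaks of the inside pairs on chromosomes 19 and 3, and the first peak of the inside pair on chromosome 4. Outside, it met only the second peak of the chromosome 15 pair. With 3 pairs on each side, this difference in overlap was not tested.

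Overlap varied more with score than with spacing. Over 4 groups of equal size by replicate 1 score, the share of members met by replicate 2 was 25.7, 36.1, 47.8 and 65.4% from the weakest to the strongest. For farther peaks it was 26.2, 37.1, 53.1 and 73.2%. In the weaker 2 groups the interval of the farther peaks lay within that of the members. In the strongest group 117 of 179 members (57.9 to 72.3%) and 527 of 720 farther peaks (69.8 to 76.4%) overlapped, the widest difference of the 4. By width, the shares for members were 30.6, 43.8, 45.7 and 49.2% from the narrowest to the widest group, below the 33.9, 47.7, 52.1 and 57.9% of farther peaks in each. With the 4 score groups weighted equally, members minus farther peaks was -3.69 percentage points, and with the 4 width groups it was -5.58.

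**Figure D4:**
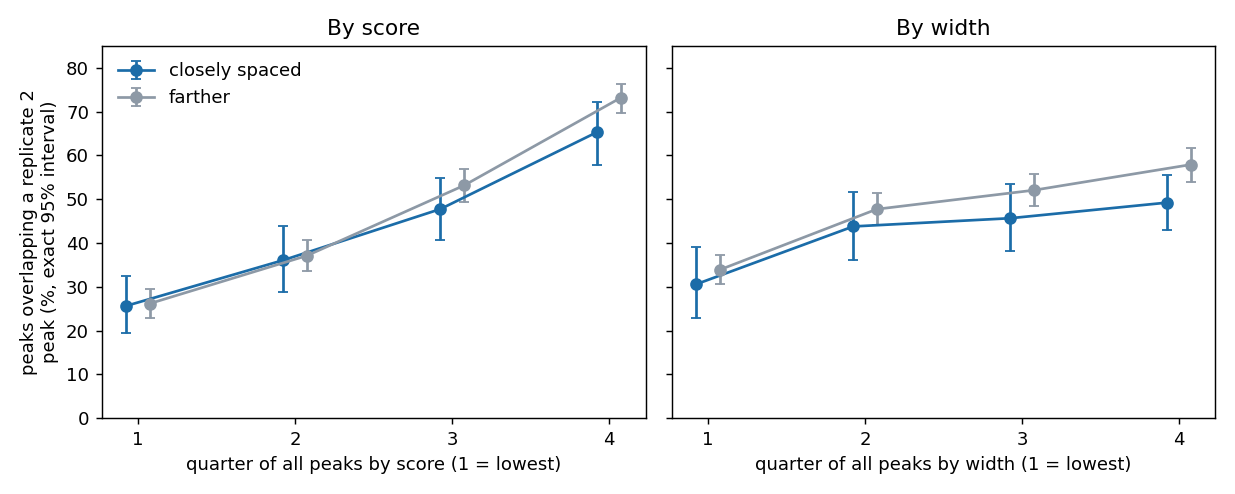
Share of closely spaced (blue) and farther (grey) replicate 1 peaks that overlap a replicate 2 peak, in 4 groups of equal size by score (left) and by width (right), with exact 95% intervals. The shares rise with score from 25.7 to 65.4% for closely spaced peaks and from 26.2 to 73.2% for farther peaks.

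Replicate 2 was also compared pair by pair. Among the 282 groups of exactly 2 peaks, replicate 2 met both peaks in 46 (16.3%, exact 95% interval 12.2 to 21.2%), 1 in 153 (54.3%, 48.2 to 60.2%) and neither in 83 (29.4%, 24.2 to 35.1%). For neighbours over 20 kb apart, where a peak can count in 2 pairs and may itself be a member, both were met in 710 of 3180 pairs (22.3%). In these, 1 was met in 1568 (49.3%) and neither in 902 (28.4%). Counted in that same way, the 404 neighbouring pairs within 20 kb had both met in 76 (18.8%, 15.1 to 23.0%). They had 1 met in 205 (50.7%) and neither in 123 (30.4%), so pairs met once were common at both spacings. Of the 46 groups of 2 with both peaks met, 11 were met by a single replicate 2 peak that overlapped each by 1 bp or more. In the 153 pairs met once, it was the stronger peak in 111 and the weaker in 42. The stronger peak of these 282 groups overlapped in 55.7% and the weaker in 31.2%. Neighbours over 20 kb apart showed the same order, with 56.8% for the stronger and 37.1% for the weaker.

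Counted by group, 240 of the 332 groups (72.3%, 67.1 to 77.0%) had at least 1 peak met by replicate 2 and 53 (15.96%, 12.2 to 20.4%) had every peak met. A group offers 2 or more peaks to be met, so the first share cannot be set against the 47.4% of single farther peaks. Nor can the second, since it needs every peak met. Of all 3600 peaks 46.6% were met, and both were met in 22.3% of neighbouring pairs over 20 kb apart. In all, 75 groups (22.6%, 18.2 to 27.5%) held 2 or more replicate 2 peaks anywhere in their span, and 91 held 0. These counts by span are given without a matching count for farther peaks. Among the 50 groups of 3 or more peaks, 28 held 2 or more replicate 2 peaks.

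The 5 pairs of neighbours found in both lists whose weaker peak scored best in replicate 1 can be named by position. On chromosome 7, peaks at 144500786 to 144502603 and 144504558 to 144508321 scored 176 and 167 in replicate 1 and 159 and 208 in replicate 2. On chromosome 2, peaks at 152222202 to 152224348 and 152239584 to 152241184 scored 149 and 167, and 198 and 100.4 in replicate 2. The chromosome 17 peak at 34087169, the strongest member, was paired with one at 34065713 to 34068390 (140 and 79.9), and the chromosome 9 peak at 57349039 with one at 57368529 to 57369901 (111 and 151). The last of these 5 pairs was made of the fourth and the fifth peak of the chromosome 2 group at 74492847. In each of these 5 pairs both replicate 1 scores were above 110, and the gaps ran from 1954 to 18778 bp.

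The replicate 2 peaks lying over members, counted once per member (so those over 2 members count for each), had a median width of 1721.5 bp (quartiles 1289.5 and 2239 bp), against 1525 bp (1198 and 1955 bp) over farther peaks. The replicate 1 peaks they overlapped differed likewise, with medians of 1852 and 1655 bp, so this is no separate view of width. The median replicate 2 score was 88.3 (65.0 and 122) against 93.9 (70.0 and 129). Midpoints of overlapping peaks lay a median of 228 bp apart for members and 170 bp for farther peaks. Of the 322 overlapping members, 158 (49.1%, 43.5 to 54.7%) had a replicate 2 peak with another replicate 2 peak within 20 kb of it, against 151 of 1357 overlapping farther peaks (11.1%, 9.503 to 12.92%). Members have a replicate 1 neighbour within 20 kb by the rule. Where a separate replicate 2 peak met that neighbour too, the replicate 2 peaks also tended to lie close. Farther peaks lack this route, so the difference is in part set by the rule. These shares were not tested, because both rest on the same 2 libraries.

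Members without an overlapping replicate 2 peak often had one nearby, mostly one that overlapped another replicate 1 peak. Of 414 such members, 236 (57.0%) had a replicate 2 peak within 20 kb, against 222 of 1507 farther peaks (14.7%). When only replicate 2 peaks that overlapped no replicate 1 peak were counted, the shares were 17.6% (73 members, 14.1 to 21.7%) and 14.7% (12.98 to 16.62%). The large difference of the first count thus came with replicate 2 peaks already matched to another replicate 1 peak. The rule leaves farther peaks no such neighbour within 20 kb, and their count was 222 both ways. The first comparison therefore favours members by construction.

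The same rule applied to replicate 2 gave a similar share of closely spaced peaks: 1066 of 4762 on the 16 chromosomes (22.4%, 21.2 to 23.6%). Of these, 326 overlapped a replicate 1 peak (30.6%, 27.8 to 33.4%), against 1360 of 3696 farther replicate 2 peaks (36.8%, 35.2 to 38.4%) and 35.4% of all. They were also wider, by 131.5 bp at the median. Chromosome 14, where replicate 2 lists far more peaks than replicate 1, weighed on this: without it the shares were 35.2% (32.1 to 38.4%) and 38.1% (36.5 to 39.7%). In both lists, then, closely spaced peaks were wider and overlapped the other list somewhat less often at face value. The 2 counts use the same overlaps, so neither supports the other.

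Members were spread unevenly over the chromosomes. Chromosome 19 had the highest share of closely spaced peaks, 57 of 177 (32.2%, 25.4 to 39.6%), and chromosome 5 the lowest, 35 of 296 (11.8%, 8.38 to 16.1%). Chromosomes 7 (26.0%), 2 (26.0%), 9 (25.2%) and 4 (24.3%) followed chromosome 19, with intervals that overlap each other. These intervals treat peaks as independent, though members come in groups. Chromosome 2 held most members, 100. The share was in general higher where peaks were denser (Spearman's rho 0.653 and Pearson's r 0.751 over 16 chromosomes, a description, since density itself brings peaks together). Chromosome 19 had 3.05 peaks per Mb and chromosome 14 had 0.832. Chromosomes 4 and 5 had 1.97 and 1.99 peaks per Mb and shares of 24.3 and 11.8%.

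Overlap of members with replicate 2 ranged from 33.3% on chromosome 13 (10 of 30) to 50.9% on chromosome 19 (29 of 57). The members lay furthest under the farther peaks on chromosome 9, at 36.8% (25 of 68) against 52.5%, and on chromosome 1, at 34.1% (14 of 41) against 49.6%. They lay above them most on chromosome 5, at 48.6% (17 of 35) against 42.5%. With 16 to 100 members per chromosome these single values are imprecise.

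**Figure D5:**
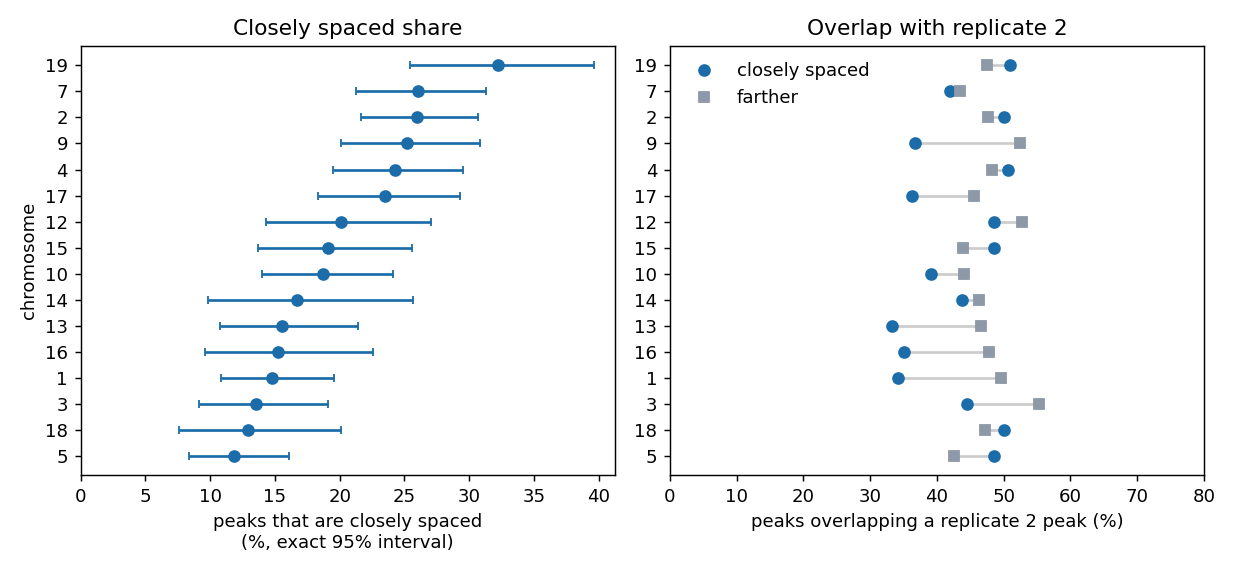
Share of replicate 1 peaks that are closely spaced (left, with exact 95% intervals) and share overlapping a replicate 2 peak for closely spaced (circles) and farther peaks (squares; right), by chromosome. The closely spaced share runs from 11.8% on chromosome 5 to 32.2% on chromosome 19, and the circles lie left of the squares on 10 of 16 chromosomes.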

How the data were processed

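The authors deposited 1 peak list per AHCY library, on mm9 per the submitters' processing notes, which also name Bowtie and TopHat. Peak names begin with MACS, a peak caller, per the file contents; for its version and settings, the sources used here say nothing. Each peak has a deposited score of at least 50, and what that score measures is not stated. The replicate 1 track speaks of a pool and the replicate 2 track of an IgG pool, per the file headers, so whether both used the same control is unknown. Read depth is unknown.

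Starts were converted to counting from 1. Gaps, groups of linked peaks and overlaps of 1 bp or more were computed in Python 3.11.15 (pandas 2.3.3 and numpy 2.4.6 for tables, scipy 1.17.1 for intervals, matplotlib 3.10.9 for figures). The gap rule and the overlaps were tested on simulated single peaks and pairs. That simulation held no gaps under 1 kb, no larger groups and no pairs joined by 1 peak. Gaps were measured over the whole list, before the 16 chromosomes were taken. Shares carry exact Clopper-Pearson 95% intervals (counting error only). No test was made: there are 2 libraries, and peaks are not replicates. Regions named are the 5 groups with most peaks (ties by summed score), the 5 best-scoring members, the 3 smallest gaps, the 5 pairs with the best lower score and both peaks overlapping replicate 2, and 3 pairs on each side of 20 kb. The members, rules and classes were chosen with earlier results of these data known. Genes were not assigned, since the annotation at hand is of a later build.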

Additional observations from a re-analysis of the deposited data

How the results depend on the processing

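The share of closely spaced peaks followed the rule: 13.1% with a limit of 10 kb, 38.1% with 50 kb, 11.7% in the better-scoring 50% of replicate 1, 10.4% with 1 peak per group and 17.9% without peaks up to 1 kb apart. Leaving out 1 replicate, it was 20.4 to 22.4%. The share of members met by the other list was 49.8% over all chromosomes (adding 6, 8 and 11), 57.3% in the better-scoring 50% of replicate 1, 57.2% for the best peak of each group, 37.8% with a reciprocal overlap of 50%, 28.3% against the better-scoring 50% of replicate 2, and 30.6% without replicate 1 (its rule applied to replicate 2). Without replicate 2 it has no value. The 16 chromosomes of the rule hold 3600 of the 4465 replicate 1 peaks but 4762 of the 11733 replicate 2 peaks. The 49.8% therefore takes in chromosomes with more replicate 2 peaks for each replicate 1 peak. Members minus farther peaks in overlap kept its sign in 13 of 14 settings and became 9.85 percentage points with the best-scoring peak of each group, which by construction compares chosen strong peaks with all farther ones. For the same reason the difference in median score was then 15.5. It was -1.91 to 0.79 leaving out 1 replicate, so its sign rests on replicate 1. The difference in median width, above 0 in all 10 settings, was 440 bp in the better-scoring 50%, 421.5 bp for the best peak of each group and 131.5 to 225 bp leaving out 1 replicate. The settings without peaks up to 1 kb apart and with 4 width groups were chosen after the data were seen. No paired analysis was possible because the lists belong to 1 group and no test was made. Unknown depth limits how an unmatched peak can be read: it may lie under the score of 50 in the other list.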

Other observations

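Pairs of neighbouring replicate 1 peaks 2 to 10 kb apart, a class chosen after its values were seen, were rarely both met by replicate 2: 18 of 174 pairs (10.3%, exact 95% interval 6.25 to 15.9%), against 710 of 3180 pairs over 20 kb apart (22.3%, 20.9 to 23.8%). The stronger peak of these pairs overlapped in 54.0%, close to the 56.8% of the wider-spaced pairs, while the weaker one did so in 22.4% (16.5 to 29.3%) against 37.1% (35.5 to 38.8%). In pairs up to 1 kb apart, both were met in 21 of 56 (37.5%), of which 14 by a single replicate 2 peak. A peak can count in 2 pairs, and pairs over 20 kb apart include members at the ends of groups. The intervals treat pairs as independent and cover counting error only. Peaks of a pair share their library, and the difference was not tested.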
